A study of Homo sapiens with 12 samples.

Results

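Keratins are the intermediate filament proteins of epithelial cells, and the 10 keratin genes described here are KRT7, KRT8, KRT15, KRT17, KRT18, KRT19, KRT23, KRT80, KRT81 and KRT86. They were taken by name from the 22963 names of the expression file, and they are 5 of the 28 type I and 5 of the 26 type II keratins that the file holds. The 10 were chosen by their FPKM in these same libraries, in both contrasts and across the cell lines, so the differences and levels below are descriptions with no test. RNA was sequenced from 12 libraries of 2 human hepatocellular carcinoma cell lines, 3 libraries in each of 4 groups. PLC/PRF5 cells carried either the empty lentiviral vector or an EGR1 construct driven by a CMV promoter. MHCC97H cells were either parental, with no EGR1 editing, or labelled EGR1 knockout. The knockout lines were made by CRISPR/Cas9 and grown from single cells, and the sources used here do not say which clone was sequenced. EGR1 is a zinc finger transcription factor that cells induce quickly after stimulation.

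A keratin filament is built from pairs of 1 acidic type I and 1 basic type II protein, so every epithelial cell makes members of both types. KRT8 (type II) and KRT18 (type I) are the keratins of hepatocytes. KRT7 (type II) and KRT19 (type I) are found in bile duct cells, and their presence in a liver tumour is read as a biliary or progenitor feature. KRT15 and KRT17 are type I keratins of basal cells and skin appendages, KRT23 is a type I keratin and KRT80 is a type II keratin. KRT81 and KRT86 are type II hair keratins, which in skin are made in the hair shaft.

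Values are FPKM, fragments counted per kilobase of transcript and scaled to the mapped fragments of the library. They are scaled to transcript length. Before sequencing, a duplex-specific nuclease lowered abundant transcripts by an extent that was not measured. Levels, ranks and shares set side by side for different genes are therefore those after this step. So are differences of an abundant transcript between groups, and the effect of the step on them was not tested. Read numbers cannot be had from FPKM, so the depth of the libraries is unknown and neither counting errors nor detection floors could be given. FPKM totals were between 376335 and 437652 per library, and replicates of a group correlated at 0.993 to 0.997 across genes on the log2(FPKM + 1) scale. Differences are between group means of log2(FPKM + 1), with the standard error (SE) of a limma fit across all genes where the gene had a mean FPKM of at least 1 in the 6 libraries of its cell line. Fold values are ratios of group means of FPKM. The labels call the replicates biological, and the sources used here do not say whether they were separate cultures, so p-values measure the spread between these libraries.

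EGR1 itself was measured first. In PLC/PRF5 cells its level was 1.81 ± 0.328 FPKM (SD, n = 3) in vector libraries and 52.9 ± 3.10 in those with the construct, a rise of 4.27 (SE 0.11, limma adjusted p = 1.58e-07). The MHCC97H levels were 21.5 ± 1.48 in parental libraries and 39.5 ± 9.43 in those labelled knockout, a rise of 0.83 (SE 0.15, limma adjusted p = 0.00126). The exact permutation test gave p = 0.1 in both cell lines, the smallest p that 3 against 3 allows. EGR1 mRNA was therefore higher in the libraries labelled knockout. The label states no mRNA level, and FPKM do not show whether the coding sequence was edited. The paper reports western blots and DNA sequencing of its knockout clones as the check of the editing. Every direction given below for MHCC97H is that of the libraries labelled knockout against parental.

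Hepatocyte markers such as ALB and APOA1 summed to between 1755 and 3609 FPKM in the PLC/PRF5 libraries and to between 13.6 and 46.8 in the MHCC97H libraries, with 7 of the 8 markers at a mean of at least 1 FPKM in each PLC/PRF5 group and 4 of 8 in each MHCC97H group. Of the 7 markers of basal and squamous epithelium, 0 reached a group mean of 1 FPKM, and their sum stayed at or under 0.458 in every library. Fibroblast markers summed to at most 10.9 FPKM and endothelial markers to at most 8.55. Leukocyte markers summed to between 27.6 and 215 FPKM, through CD68 and LYZ in PLC/PRF5 and CD68 in MHCC97H, with the defining marker PTPRC at 0 or under a mean of 1 in every group. In bulk RNA, fewer cells of a type and less RNA per cell cannot be told apart.

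Across the 54 keratins of both types, 12 had a mean of at least 1 FPKM in some group, another 27 were listed above 0, and 15 were listed at 0 in all 12 libraries. Of the 10 genes, KRT17 was the one that stayed under 1 FPKM in every group. The 3 keratins outside the 10 that reached 1 FPKM were KRT10 and KRT20 (type I) and KRT4 (type II).

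KRT81 had the largest difference of the 10 in PLC/PRF5 cells. With the vector it was at 17.2, 18.2 and 16.2 FPKM, and with EGR1 overexpression at 2.07, 1.91 and 2.83. All 3 EGR1 libraries were far under all 3 vector libraries. The difference was -2.48 (SE 0.12), and mean FPKM was 7.57-fold lower with EGR1. In MHCC97H cells KRT81 was near the bottom of the scale, at 0.280, 0.114 and 0.0873 FPKM in parental libraries and at 0.206, 0.246 and 0.159 in those labelled knockout. These 2 groups overlapped, and KRT81 did not pass the filter on low values there. The order of its levels was therefore PLC/PRF5 with vector, PLC/PRF5 with EGR1, and then both MHCC97H groups, which did not differ beyond their spread.

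KRT86, the neighbouring hair keratin, was lower by the same order of size. It was at 1.38, 1.21 and 1.36 FPKM with the vector and at 0.295, 0.101 and 0.333 with EGR1. The groups did not overlap, the difference was -0.90, and mean FPKM was 5.41-fold lower. KRT86 has no SE because its mean over the 6 libraries was under 1 FPKM. In MHCC97H it was at 0.350, 0.430 and 0.503 FPKM in parental libraries and at 0.556, 0.449 and 0.545 in those labelled knockout. These values overlapped and lay between the levels of the PLC/PRF5 groups, just above those with EGR1. KRT83, the hair keratin on the other side of KRT81, had means of 0.152 FPKM with the vector and 0.103 with EGR1, and these groups overlapped.

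The values of KRT81 and KRT86 cannot be read as fully separate, because the genes are near copies of each other. In GENCODE release 29 on GRCh38, KRT81 lies on the minus strand at chr12:52285913-52291534, inside the annotated span of KRT86 on the plus strand at chr12:52249300-52309163. Their exons share 0 positions. Their coding sequences, of 1515 and 1458 bases, were identical at 93.6% of 1454 aligned bases, against 93.37% for KRT81 and KRT83. Identity between KRT81 and KRT86 was clustered. The longest identical run was 605 bases, at coding bases 61 to 665 of both genes, and 39.59% of the 100-base windows of KRT86 also occurred in KRT81. No 100-base window of KRT83 did so. How reads that match both genes were assigned is not given in the sources used here.

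In PLC/PRF5 the FPKM ratio of KRT86 to KRT81 averaged 0.0768 ± 0.00936 (SD, n = 3) in vector libraries and 0.104 ± 0.0464 in EGR1 libraries, and these values overlapped between groups. In MHCC97H the ratio was 3.59 ± 2.26 in parental libraries and 2.65 ± 0.798 in those labelled knockout, where KRT81 was under 0.3 FPKM in every library. The ratio thus differed between the cell lines, with the MHCC97H ratios resting on KRT81 values near 0. Whether KRT86 was a fixed share of KRT81 within PLC/PRF5 was not tested.

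**Figure D1:**
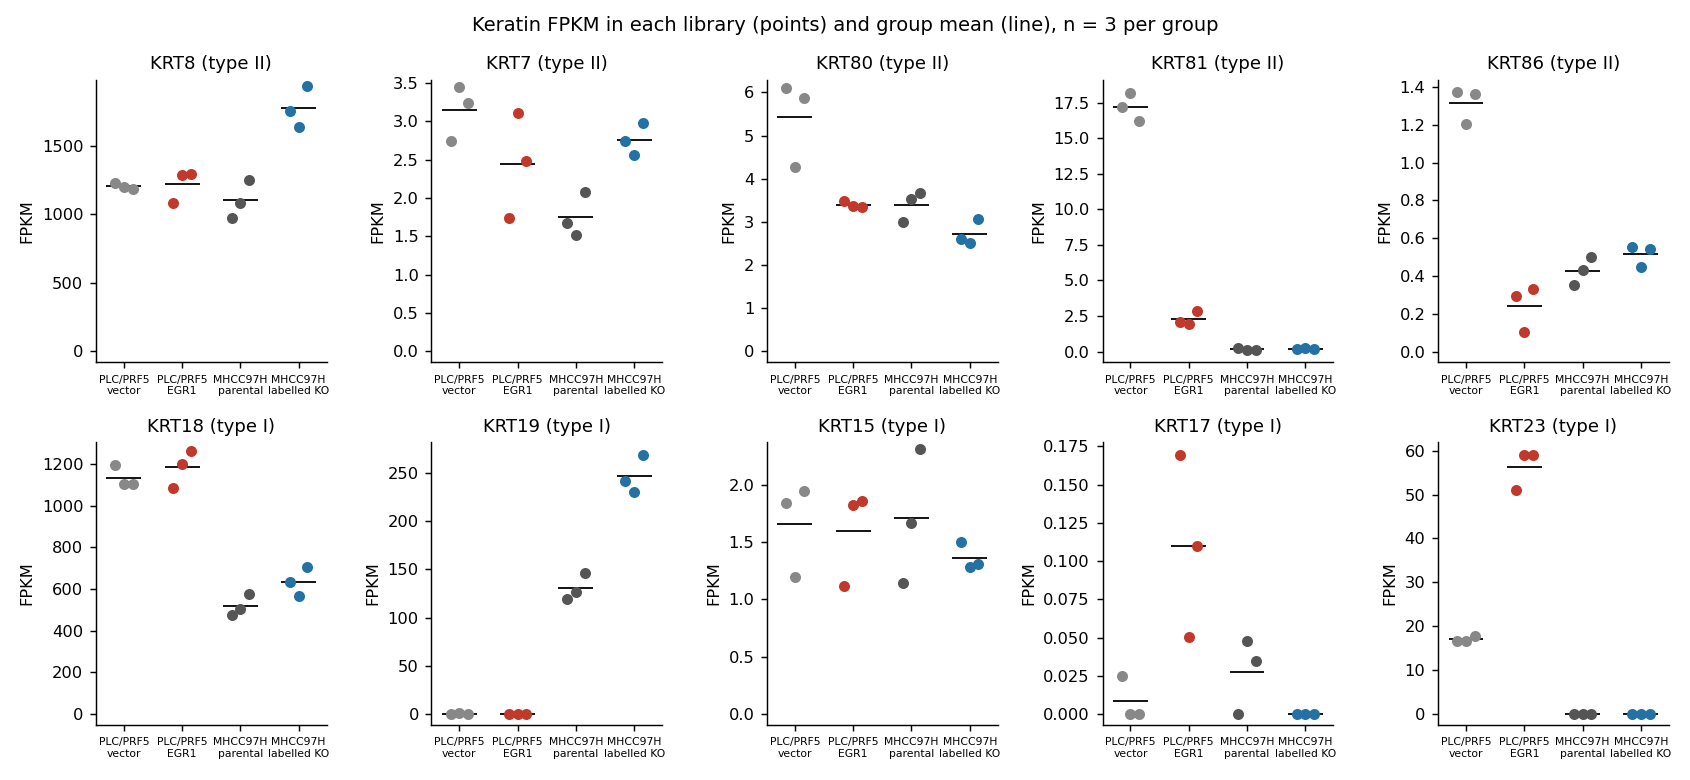
FPKM of the 10 keratins in each library, 1 panel per gene with its own linear axis from 0; points are libraries and lines are means of 3. KRT81 and KRT86 are highest with the vector, KRT23 with EGR1 overexpression, and KRT19 in the libraries labelled knockout.

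KRT23 differed in the other direction in PLC/PRF5 cells. It was at 16.7, 16.6 and 17.8 FPKM with the vector, a level that overlapped that of KRT81 in the same libraries. With EGR1 it was at 50.9, 58.9 and 58.9. All 3 EGR1 libraries were above all 3 vector libraries, with a difference of 1.66 (SE 0.09) and a mean 3.30-fold higher. In MHCC97H it was at 0.124, 0.139 and 0.0993 FPKM in parental libraries and at 0.0287, 0.0695 and 0 in those labelled knockout. These groups did not overlap, but every value was under 0.2 FPKM and KRT23 did not pass the filter there. KRT23 lies on the minus strand of chromosome 17, at chr17:40922696-40937634.

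KRT80 was, after KRT81 and KRT23, the remaining keratin above the filter whose PLC/PRF5 groups did not overlap. It was at 6.11, 4.28 and 5.88 FPKM with the vector and at 3.48, 3.37 and 3.34 with EGR1, a difference of -0.54 (SE 0.13). The second vector library was the lowest of its group and still above all EGR1 libraries. In MHCC97H it was at 2.99, 3.53 and 3.67 FPKM in parental libraries and at 2.60, 2.51 and 3.07 in those labelled knockout, with overlap and a difference of -0.24 (SE 0.12). In the order of its levels (vector, then EGR1 and parental, then labelled knockout), neighbours below the vector group overlapped.

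KRT8 and KRT18, the hepatocyte pair, were the most abundant keratins in every library, and their vector and EGR1 groups overlapped. KRT8 was at 1229, 1200 and 1186 FPKM with the vector and at 1085, 1286 and 1298 with EGR1, a difference of 0.02 (SE 0.12) that was -0.01 after scaling to equal totals. KRT18 was at 1193, 1105 and 1104 FPKM with the vector and at 1086, 1199 and 1263 with EGR1, a difference of 0.06 (SE 0.12). For both genes the first EGR1 library was under all vector libraries and the third above them.

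In MHCC97H the pair was uneven. KRT8 was at 970, 1085 and 1251 FPKM in parental libraries and at 1752, 1638 and 1936 in those labelled knockout, with no overlap, a difference of 0.69 (SE 0.12) and a mean 1.61-fold higher. KRT18 was at 473, 504 and 574 FPKM in parental libraries and at 633, 567 and 704 in those labelled knockout. Its groups overlapped through the second library labelled knockout and the third parental one, and its difference was 0.29 (SE 0.11). KRT8 ranked between 13 and 15 by FPKM among all genes of the libraries labelled knockout and between 23 and 30 among those of parental libraries. KRT8 (minus strand, chr12:52897187-52949954) and KRT18 (plus strand, chr12:52948871-52952901) are neighbours whose annotated exons share 135 positions, and the sources used here do not say whether counting used strand.

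KRT19, the bile duct keratin, separated the cell lines most. It was at 0.498, 0.792 and 0.582 FPKM with the vector and at 119, 127 and 146 in parental MHCC97H libraries, a mean 209-fold higher in the latter. Within MHCC97H it was at 241, 230 and 268 FPKM in libraries labelled knockout. These were all above the parental libraries, with a difference of 0.91 (SE 0.10) and a mean 1.89-fold higher. With FPKM as deposited this was the largest difference of the 10 in this cell line, but with quantile normalization KRT8 (0.68) was above KRT19 (0.62). In PLC/PRF5 cells with EGR1 it was at 0.197, 0.142 and 0.113 FPKM. All 3 were under the vector libraries, by 4.15-fold on the means, at levels that did not pass the filter. The 8 biliary and progenitor markers, of which 3 reached a mean of 1 FPKM in each group, moved the same way as KRT19. Their sum was 119 to 153 FPKM with the vector, 86.9 to 90.4 with EGR1, 251 to 313 in parental libraries and 387 to 417 in those labelled knockout, with CFTR at 0 in all groups. Their part in the KRT19 values was not tested.

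KRT7, the type II bile duct keratin, stayed between 1.52 and 3.45 FPKM in all 12 libraries. It was at 2.74, 3.45 and 3.24 FPKM with the vector and at 1.73, 3.11 and 2.48 with EGR1, with overlap and a difference of -0.28 (SE 0.15). In MHCC97H it was at 1.68, 1.52 and 2.08 FPKM in parental libraries and at 2.74, 2.57 and 2.98 in those labelled knockout. These groups did not overlap, the difference was 0.45 (SE 0.12), and the mean was 1.57-fold higher.

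KRT15 and KRT17 showed the least. KRT15 had group means between 1.36 and 1.71 FPKM, and all of its groups overlapped, with differences of -0.03 (SE 0.16) in PLC/PRF5, or 0.04 with the correction for GC content described further on, and -0.17 (SE 0.16) in MHCC97H. KRT17 was listed at 0.169, 0.0506 and 0.110 FPKM with EGR1 and at 0.0250, 0 and 0 with the vector. It was listed at 0 in all 3 libraries labelled knockout and at 0, 0.0482 and 0.0349 in parental libraries, so these values rest on levels near 0.

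Counted together for PLC/PRF5, 7 of the 10 keratins passed the filter and 3 (KRT17, KRT19 and KRT86) did not. The groups did not overlap for 6 of 10, with KRT17 and KRT23 higher and KRT19, KRT80, KRT81 and KRT86 lower with EGR1. Of the 7 that passed the filter, 3 had groups that did not overlap. Among all 11671 genes that passed the filter, 47.7% had groups that did not overlap (30.4% higher and 17.3% lower). The median difference of all 10, passed or not, was -0.16, beside 0.09 over all genes that passed. In MHCC97H, 6 of the 10 passed the filter and 4 (KRT17, KRT23, KRT81 and KRT86) did not. The groups did not overlap for 4 of 10, with KRT7, KRT8 and KRT19 higher and KRT23 lower in the libraries labelled knockout. Of the 6 that passed, 3 had groups that did not overlap. Among all 11577 genes that passed there, 71.8% did not overlap (38.3% higher and 33.6% lower). The medians were 0.07 for all 10, passed or not, and 0.02 for all genes that passed. Since the 10 were chosen with these contrasts known, nothing is read from these shares.

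**Figure D2:**
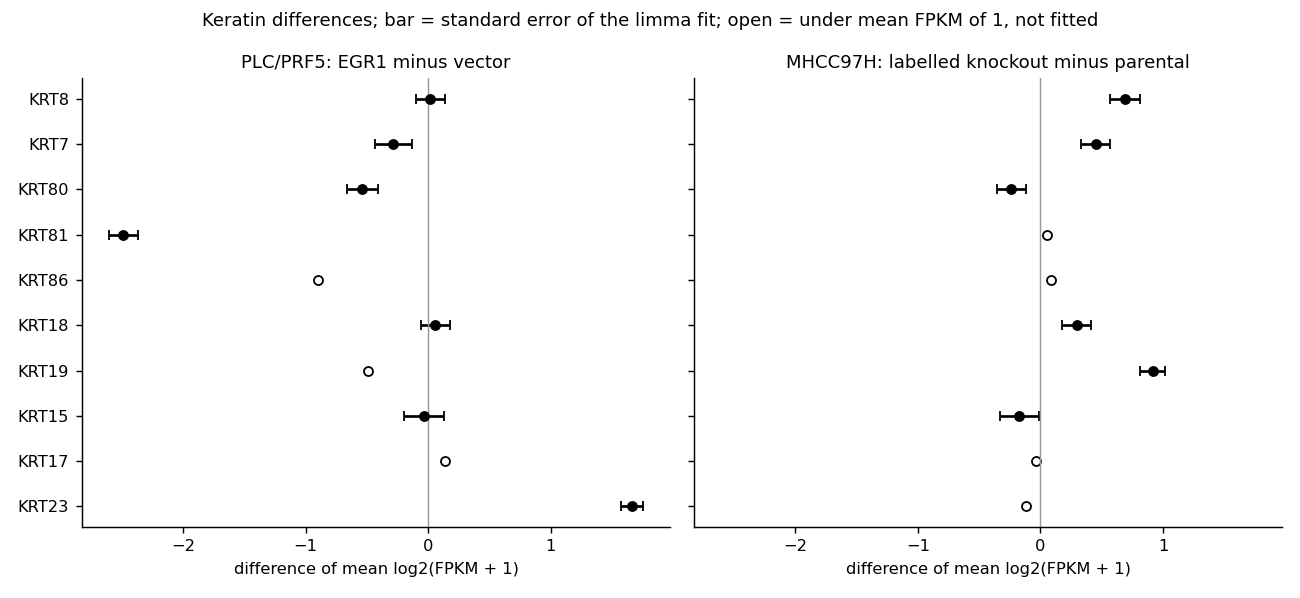
Differences of mean log2(FPKM + 1) for the 10 keratins, EGR1 minus vector in PLC/PRF5 and labelled knockout minus parental in MHCC97H; bars are the standard error of the limma fit, and open points are genes under a mean of 1 FPKM, which have none. KRT81 (-2.48) and KRT23 (1.66) stand furthest from 0 in PLC/PRF5, and KRT19 (0.91, with FPKM as deposited) in MHCC97H.

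The MHCC97H differences moved with a property of the transcripts. GC content and transcript length accounted for 54.47% of the variance of the differences across 10806 genes in MHCC97H and for 18.52% across 10829 genes in PLC/PRF5. The 10 keratins have transcripts with 50.3% to 62.9% GC. After a trend on GC content and length had been removed from every library, the MHCC97H differences were 0.39 for KRT8, 0.22 for KRT19, -0.24 for KRT7 and -0.24 for KRT18. The signs of KRT7 and KRT18 turned, and KRT8 and KRT19 kept theirs at a smaller size. KRT15 and KRT80 were at -0.50 and -0.62, which then were the largest of the 6. In PLC/PRF5 the corrected differences were -2.30 for KRT81, 1.77 for KRT23 and -0.43 for KRT80, with the same signs as without correction. Scaling to equal totals moved the median of all genes in MHCC97H from 0.02 to -0.11, and the keratin differences there moved down with it, to 0.54 for KRT8 and 0.76 for KRT19. The GC and length correction also takes out any biological difference that follows GC content or length.

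**Figure D3:**
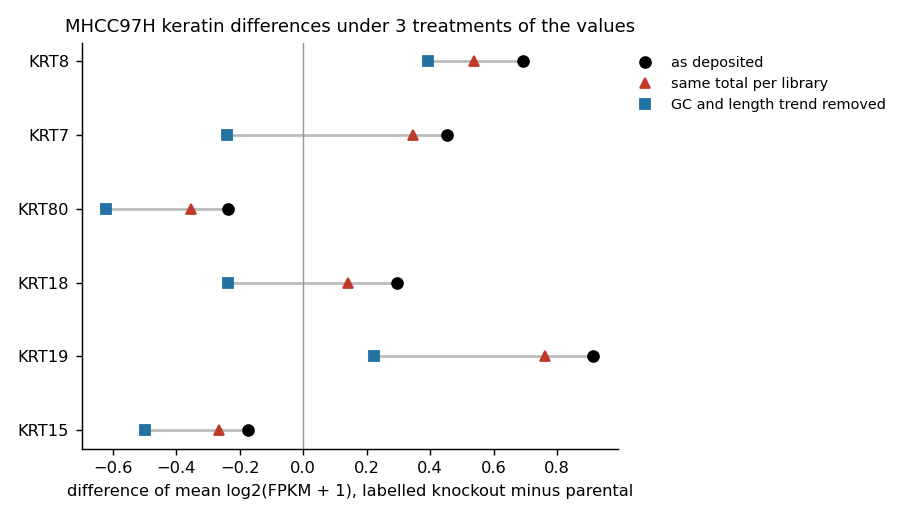
Difference of mean log2(FPKM + 1), labelled knockout minus parental, for the 6 keratins above the filter in MHCC97H: with FPKM as deposited (circles), after scaling to equal totals (triangles), and with the GC and length trend removed (squares). All 6 move down under both treatments, and KRT7 and KRT18 cross 0 under the second.

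The make-up of the keratin pool differed between the cell lines more than within them. With the vector, KRT8 and KRT18 held, after the nuclease step, 97.1% ± 0.225 (SD, n = 3) of all keratin FPKM, and with EGR1 96.2% ± 0.0950. In MHCC97H they held 78.2% ± 1.19 in parental libraries and 78.3% ± 1.37 in those labelled knockout. The rest in MHCC97H was mostly KRT19 and KRT20, an intestinal type I keratin. KRT20 was at 288, 312 and 305 FPKM in parental libraries and at 408, 402 and 377 in those labelled knockout, against 9.14 to 14.7 in the PLC/PRF5 libraries. KRT18 accordingly made up 53.8% ± 1.38 of type I keratin FPKM in parental libraries and 49.1% ± 2.47 in those labelled knockout, against 96.3% ± 0.460 with the vector and 93.1% ± 0.293 with EGR1.

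In MHCC97H the ratio of all type II to all type I keratin FPKM was nearer to 1 than the ratio of KRT8 to KRT18. The summed ratio was 1.05 ± 0.0240 (SD, n = 3) with the vector, 0.969 ± 0.0312 with EGR1, 1.15 ± 0.0589 in parental libraries and 1.38 ± 0.0404 in those labelled knockout. The KRT8 to KRT18 ratio was 1.06 ± 0.0290 and 1.03 ± 0.0366 in the PLC/PRF5 groups and 2.13 ± 0.0670 and 2.80 ± 0.0755 in the MHCC97H groups. All values of both ratios were higher in libraries labelled knockout than in parental ones. Keratins made up 0.590% of all FPKM with the vector, 0.598% with EGR1, 0.546% (0.494 to 0.600) in parental libraries and 0.729% (0.681 to 0.755) in those labelled knockout. None of the keratin ratios and shares was computed with the GC and length trend removed, so their dependence on it is not known.

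**Figure D4:**
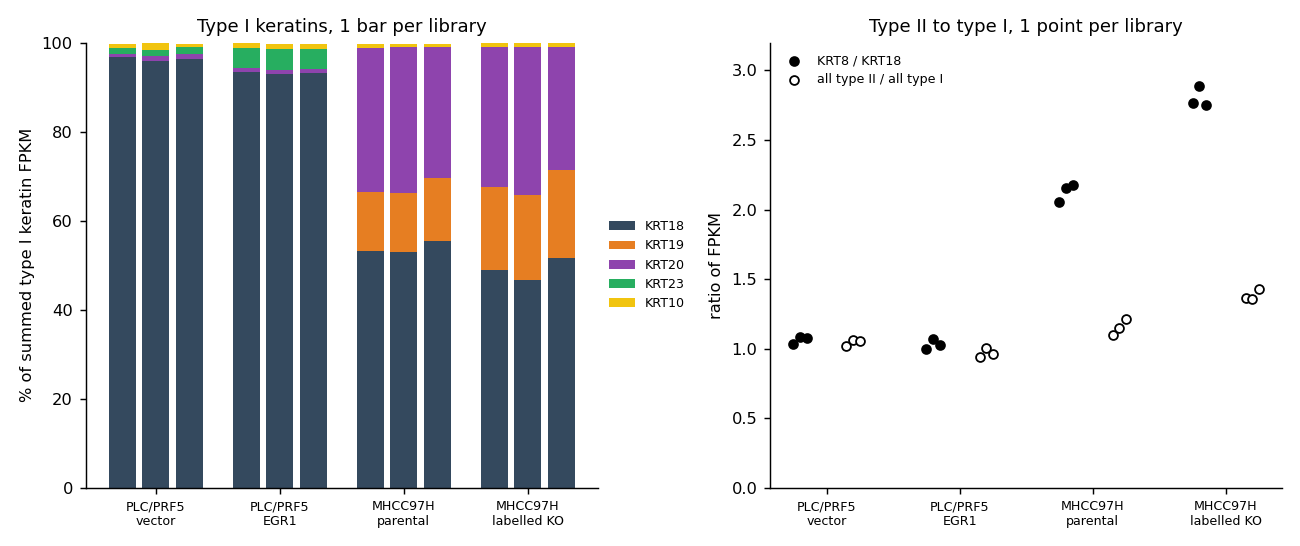
Left, the share of summed type I keratin FPKM held by KRT18, KRT19, KRT20, KRT23 and KRT10 in each library, as stacked bars from 0 to 100%; right, the ratio of KRT8 to KRT18 (filled) and of all type II to all type I keratin FPKM (open) in each library. KRT18 holds over 90% of type I FPKM in PLC/PRF5 and about 50% in MHCC97H, where KRT20 and KRT19 hold most of the rest.

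Between the control groups of the cell lines, parental MHCC97H and PLC/PRF5 with the empty vector, KRT23 was 141-fold and KRT81 107-fold higher in PLC/PRF5. Cell line and vector cannot be told apart in these values. KRT18 was 2.19-fold, KRT86 3.07-fold, KRT7 1.79-fold and KRT80 1.60-fold higher there. KRT8 and KRT15 overlapped. Of the other keratins, KRT20 was 26.9-fold higher in parental MHCC97H, KRT10 had means of 12.4 FPKM with the vector and 7.73 in parental libraries, and KRT4 was listed at 0 in all PLC/PRF5 libraries. KRT4, a keratin of moist stratified epithelia, was at 0.679, 0.601 and 0.608 FPKM in parental libraries and at 2.64, 2.06 and 2.67 in those labelled knockout.

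The 5 genes whose pattern over the 12 libraries was nearest to that of KRT81 were EGLN3, CKB, S100A9, FXYD3 and CA9, out of 12090 genes with a mean of at least 1 FPKM. Likeness was the root mean square difference of log2(FPKM + 1) after centring each gene on its own mean, which was 0.228 for EGLN3, 0.273 for CKB, 0.295 for S100A9, 0.402 for FXYD3 and 0.413 for CA9. EGLN3, a prolyl hydroxylase, was at 12.2, 13.3 and 13.1 FPKM with the vector and at 3.04, 2.07 and 2.08 with EGR1. CKB, the brain-type creatine kinase, was at 149, 158 and 149 FPKM with the vector and at 39.3, 38.1 and 42.3 with EGR1. Like KRT81, both were lowest in MHCC97H, where EGLN3 was listed at 0 in 5 of 6 libraries and CKB was between 11.4 and 14.9 FPKM.

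Genes whose proteins bind or anchor keratin filaments were described from 5 lists with 62 genes in all. The lists were chosen with earlier results of these data known. Their p-values and called shares are therefore descriptions, and nothing is read from them against the shares of all genes. In PLC/PRF5 35 of them were tested, and 8 rose and 4 fell with EGR1 (limma adjusted p under 0.05), which is 34.3% of those tested beside 29.6% of all genes (19.2% higher and 10.4% lower, or 13% and 15.1% with quantile normalization). After scaling to equal totals 5 rose and 3 fell, beside 16.6% and 11.4% of all genes, and with quantile normalization 4 rose and 4 fell. The GC and length correction gave 12 that rose and 5 that fell, beside 25.7% and 11.8% of all genes. It added DSG2 to the lower genes and INA, PLEC, TFAP2A and TFAP2C to the higher ones. INA, TFAP2A and TFAP2C are named here after their values were seen. In MHCC97H 38 were tested, and 16 rose and 14 fell in the libraries labelled knockout, 78.9% of those tested beside 66.3% of all genes (34.8% higher and 31.5% lower, or 27.3% and 38.3% after scaling to equal totals). There 10 rose and 17 fell after that scaling, and 8 rose and 16 fell with the GC and length trend removed, beside 27.6% higher and 18.3% lower of all genes under that correction. With it 4 genes were called in the opposite direction, PERP higher and PKP3, CD151 and FAM83H lower, and they are named here after their values were seen.

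Desmosomes, the junctions that join keratin filaments of neighbouring cells, had 2 of 6 tested genes rise in PLC/PRF5 and 0 fall, with a list median of 0.15 beside 0.09 over all genes. DSG2 was called lower there once the GC and length trend was removed. DSP, the plakin that ties keratins to the junction, was at 37.9, 25.1 and 37.1 FPKM with the vector and at 53.2, 49.1 and 53.4 with EGR1, a rise of 0.64 (SE 0.15, limma adjusted p = 0.0128). JUP, or plakoglobin, rose by 0.46 (SE 0.08, limma adjusted p = 0.00470). In the libraries labelled knockout 1 of 8 tested desmosome genes rose and 5 fell, with a median of -0.44 beside 0.02. DSP fell by 0.81 on the log2 scale (SE 0.12, limma adjusted p = 4.82e-04), PKP2, plakophilin 2, fell by 1.22 (SE 0.10, limma adjusted p = 3.78e-05), and DSG2, a desmosomal cadherin, fell by 0.90 (SE 0.12, limma adjusted p = 2.93e-04). With the GC and length trend removed the count was again 1 higher and 5 lower, but for other genes in part: PERP turned to higher, PKP3 turned to lower and JUP joined the lower ones. DSP and PKP2 were then at -0.63 and -1.07, and DSG2 at -0.42. DSC2, called lower as deposited, was at 0.13 (limma adjusted p = 0.273).

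Hemidesmosomes, which anchor keratins to the basement membrane, had 2 of 7 tested genes rise and 3 fall in PLC/PRF5. DST, dystonin, was at 8.75, 4.95 and 8.41 FPKM with the vector and at 19.0, 19.8 and 18.3 with EGR1, a rise of 1.29 (SE 0.17, limma adjusted p = 0.00151). ITGB4, the integrin chain that binds plectin, was at 47.1, 33.5 and 42.0 FPKM with the vector and at 22.3, 22.4 and 23.8 with EGR1, and it fell by 0.80 on the log2 scale (SE 0.12, limma adjusted p = 0.00239). The second vector library was lowest for DST, ITGB4 and DSP, as it was for KRT80. LAMA3 rose, and LAMB3 and ITGA6 fell, each by less than 0.5, and LAMA3 and ITGA6 passed under neither scaling. In the libraries labelled knockout 3 of 8 rose and 5 fell. DST fell by 1.06 (SE 0.26, limma adjusted p = 0.00653), with 1 library labelled knockout at 2.05 FPKM and the others at 5.08 and 6.05. ITGB4 rose by 0.59 (SE 0.10, limma adjusted p = 0.00103) and PLEC, plectin, by 0.74 (SE 0.12, limma adjusted p = 6.66e-04). With the GC and length trend removed 1 of the 8 was higher, PLEC at 0.31, and 5 were lower, with CD151 turned from higher to lower. ITGB4 and DST were at 0.08 and -0.38 and no longer passed (limma adjusted p = 0.210 and 0.187).

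Among the other plakins and keratin-binding proteins, 3 of 9 rose in PLC/PRF5 and 0 fell. PNN, pinin, which binds keratins and is also a splicing factor of the nucleus, rose from 14.9 ± 3.63 to 30.3 ± 1.72 FPKM (SD, n = 3), by 1.00 (SE 0.15, limma adjusted p = 0.00212). EVPL, envoplakin, and TCHP, trichoplein, rose by 0.32 and 0.34, and neither passed under either scaling. In the libraries labelled knockout 5 of 9 rose and 2 fell. SFN, the 14-3-3 protein that binds keratins, rose from 36.1 ± 3.08 to 74.5 ± 4.99 FPKM, by 1.02 (SE 0.09, limma adjusted p = 5.06e-05). EPPK1, epiplakin, fell by 1.19 (SE 0.11, limma adjusted p = 5.57e-05), and PNN fell by 0.92 (SE 0.20, limma adjusted p = 0.00329). With the GC and length trend removed 1 was higher and 3 were lower, and the list median went from 0.31 to -0.07. SFN was then at 0.31, EPPK1 at -1.63 and PNN at -0.43 (limma adjusted p = 0.0481 for PNN), and FAM83H turned from higher to lower.

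Of the intermediate filament genes outside the keratins, 1 of 6 rose in PLC/PRF5. This was SYNM, synemin, by 0.41 (SE 0.10, limma adjusted p = 0.0179). It did not pass with quantile normalization (0.28, limma adjusted p = 0.0826) or without EGR1 replicate 2 or 3 (limma adjusted p = 0.0546 and 0.0643). In the libraries labelled knockout 4 of 7 rose and 1 fell. LMNB2 rose by 0.96 (SE 0.10, limma adjusted p = 8.16e-05) and LMNA by 0.71 (SE 0.11, limma adjusted p = 5.42e-04). Both are lamins, which form filaments under the nuclear envelope and not in the cytoplasm. With the GC and length trend removed 2 of the 7 were higher and 2 lower, with LMNB2 at 0.46 and LMNA at 0.16 (limma adjusted p = 0.0298 for LMNA). Of 7 epithelial transcription factors tested in PLC/PRF5, 0 rose and SOX9, a factor of bile duct cells, fell from 11.3 ± 0.321 to 5.82 ± 1.36 FPKM, by 0.87 on the log2 scale (SE 0.14, limma adjusted p = 0.00274). TFAP2A and TFAP2C were called higher there once the GC and length trend was removed. KRT19, the bile duct keratin, was lower in the EGR1 libraries too, but at levels under the filter (means of 0.624 and 0.151 FPKM). KRT7, the other bile duct keratin, overlapped between these groups (-0.28, SE 0.15). A link of either keratin to SOX9 was not tested. In the libraries labelled knockout 3 of 6 rose and 1 fell. SOX9 rose by 0.45 (SE 0.11, limma adjusted p = 0.00635), ELF3, an epithelial ETS factor, by 1.03 (SE 0.10, limma adjusted p = 5.63e-05), and KLF5 fell by 0.95 (SE 0.10, limma adjusted p = 9.10e-05). With the GC and length trend removed 3 were again higher and 1 lower, with EHF in place of KLF4 among the higher ones.

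Of the partner genes, 11 were called in both comparisons, and DSP, DST, ITGB4, LAMA3, PNN and SOX9 moved in opposite directions. Among all genes, 29.6% were called in PLC/PRF5 and 66.3% in MHCC97H. The share of all genes called in both, or in opposite directions, was not computed, so nothing is read from these counts. SYNM, EVPL and TCHP rose in both, and ITGA6 and LAMB3 fell in both. Of 15 alternatives in PLC/PRF5, SYNM kept its call in 12, EVPL in 8, TCHP in 9, ITGA6 in 7 and LAMB3 in 13. In MHCC97H SYNM kept it in 7, EVPL in 13, TCHP in 11, and ITGA6 and LAMB3 in all 15. Among genes that moved in opposite directions, LAMA3 kept its call in 8 in PLC/PRF5 and 13 in MHCC97H. DSP, PNN and SOX9 kept theirs in all 15 in both cell lines. With the GC and length trend removed, SYNM, DST, ITGB4, EVPL and TCHP no longer passed in MHCC97H (limma adjusted p from 0.0633 for TCHP to 0.592 for EVPL).

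**Figure D5:**
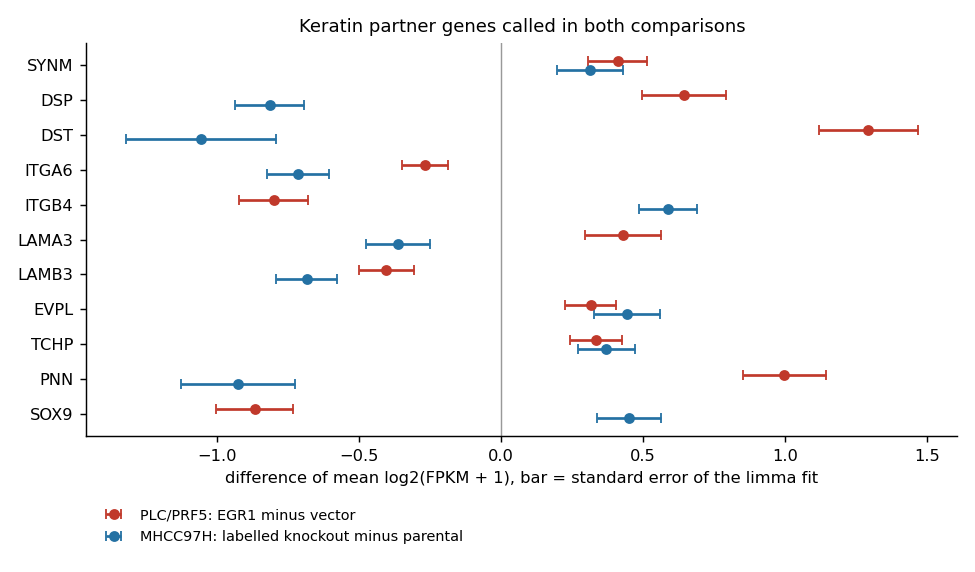
Differences of mean log2(FPKM + 1) for the 11 partner genes called in both comparisons, EGR1 minus vector (red) and labelled knockout minus parental (blue); bars are the standard error of the limma fit. DSP, DST, ITGB4, LAMA3, PNN and SOX9 lie on opposite sides of 0, and the other 5 on the same side.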

How the data were processed

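For 12 libraries, mRNA was selected on oligo(dT) beads. A duplex-specific nuclease step followed, which lowers abundant transcripts such as those of KRT8 and KRT18 to an extent not measured here. The authors deposited FPKM per gene name, and their processing notes name StringTie and hg38. The aligner, annotation and strand setting are not given in the sources used here. Columns were matched to samples by name, and 0 columns belonged to other samples. Of 22963 names, 3031 were assembled loci and 19458 matched GENCODE release 29. FPKM are not counts, so no count test was run.

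The 10 keratins and the partner lists were chosen with earlier results of these data known. Named genes were the 10 keratins, EGR1, other keratins at a group mean of at least 1 FPKM, partner genes called in both comparisons or among the 4 largest called differences of a list without overlap, the 5 genes nearest to KRT81, and the neighbours of KRT81 and KRT86. Each cell line was fitted alone with limma 3.58.1 in R 4.3.3 on log2(FPKM + 1), with an intensity trend. Genes under a mean FPKM of 1 in the 6 libraries were left out. Tests were 2-sided with Benjamini-Hochberg adjustment over all genes and a threshold of 0.05. The fit was tested on simulated data. The alternatives were a pseudocount of 0.1, FPKM above 0 as the filter, 2 scalings, no trend, 1 fit of 12 libraries, a replicate block, a spline correction (5 degrees of freedom) for GC content and length, and leaving out each library. Coding sequences were aligned with Biopython 1.88, and plots were drawn with matplotlib 3.10.9. Promoter sequences were not used here.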

Additional observations from a re-analysis of the deposited data

How the results depend on the processing

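Counts of partner genes and the median of the 10 keratins moved with several choices, whose cause was not tested. In PLC/PRF5, genes that fell were 7 with FPKM above 0 as the filter, where more genes were tested. Of all genes, 5.68% fell with that filter, beside 10.4% in the main fit. Genes that rose were 5 with the same total and 4 with quantile normalization, which put the keratin median at -0.31. Of all genes, 16.6% and 13% rose with these scalings, beside 19.2% in the main fit. Leaving out 1 library gave 4 to 8 that rose (4 without EGR1 replicate 2 or 3), 2 to 5 that fell (2 without vector replicate 3 or EGR1 replicate 2) and keratin medians from -0.26 to -0.0148 (-0.0148 without EGR1 replicate 1). Calls over all genes moved too, with 10.2% to 23.7% that rose and 6.25% to 10.6% that fell. The lowest shares, 10.2% and 6.25%, were those without EGR1 replicate 2. In MHCC97H, leaving out 1 library gave 11 to 15 that rose and 10 to 14 that fell. Calls over all genes were then 30.2% to 34.6% higher and 25.4% to 30.9% lower. The keratin median was 0.26 with a pseudocount of 0.1. Genes that rose were 10 with the same total (27.3% of all genes). They were 8 with the GC and length correction, with and without the replicate block (27.3% and 27.6% of all genes). With that correction BFSP1 was at -0.12, DSC2 at 0.13, EVPL at -0.069 and KLF4 at -0.12, opposite in sign to their calls without passing the other way, and the block left these values as they were. PERP, PKP3, CD151 and FAM83H did pass the other way. Across all alternatives, 6 of 12 named partner calls in PLC/PRF5 and 14 of 24 in MHCC97H passed every time. EGR1 differences stayed between 4.17 and 4.81 and between 0.48 and 0.94 and passed every time. With a pseudocount of 0.1 the PLC/PRF5 differences were -2.88 for KRT81, -2.12 for KRT86 and -1.53 for KRT19. The correction was not applied to keratins under the filter, so it gave no median of all 10.

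Same-numbered libraries did not deviate together in every pair (r of -0.132, 0.136 and -0.0758 in PLC/PRF5, and 0.0317, 0.0302 and 0.467 in MHCC97H). With 3 pairs per cell line, these r cannot show whether same-numbered libraries shared a culture or a batch. With the replicate block 7 partner genes rose and 3 fell in PLC/PRF5, beside 18.6% and 9.31% of all genes. In MHCC97H 16 rose and 15 fell with it, beside 35.7% and 33.3% of all genes. FPKM keep no depth, so low values such as those of KRT17 have no error of their own.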
